A study of Mus musculus with 9 samples.

Results

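The 10 tubulin isotypes described here are the α-tubulin genes Tuba1a, Tuba1b and Tuba1c and the β-tubulin genes Tubb2a, Tubb2b, Tubb3, Tubb4a, Tubb4b, Tubb5 and Tubb6. They were taken by gene symbol from the 55704 genes of the FPKM table, and 10 of 10 were found. FPKM is the number of RNA fragments on a gene scaled to its length and to the size of the library, so levels of different genes can be set side by side, as far as the gene lengths that the authors used hold. Bulk RNA was measured in 9 libraries of wild-type adult mouse neural stem cells (NSCs), in 3 groups of 3. The cells came from the subventricular zone of C57BL/6 mice aged 8 to 9 weeks, with 2 female and 2 male animals pooled for each isolation, and had been expanded over passages in bFGF and EGF. bFGF/EGF-treated NSCs were collected at day 0 in that medium. For bFGF/BMP4-treated NSCs EGF was replaced with BMP4, for BMP4-treated NSCs BMP4 replaced bFGF as well as EGF, and these cells were collected at day 6. Each factor was used at 20 ng/ml. The authors list B27 minus vitamin A for the proliferation medium and B27, without that remark, for the day 6 media. Cells for the day 6 media were plated on poly-L-ornithine and laminin. Whether the day 0 cells sequenced were plated in this way is not stated. Both day 6 groups are set against the same bFGF/EGF libraries, which were not kept in culture for those 6 days. Time in culture, growth factors, supplement and any difference in plating therefore cannot be told apart in these comparisons.

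Microtubules are hollow polymers of a dimer of α-tubulin and β-tubulin, and mammals encode each subunit in several genes, the isotypes. The proteins are alike over most of their length and differ most in the carboxy-terminal tail, which faces the outside of the microtubule, carries the chain modifications and is read by motors and microtubule-associated proteins. Dividing cells use microtubules for the spindle, and neurons and glia use them for processes and cilia. TUBB3 is widely used as a marker of young neurons. A free tubulin dimer also feeds back on its own mRNA: the first residues of a nascent tubulin chain are recognized on the ribosome and the mRNA is then degraded.

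The start of the coding sequence, and for β-tubulin genes its end, are shown because they carry these features. The start codes for the residues read in autoregulation, and the end codes for the tail by which isotypes are told apart. All were read from the canonical transcripts of GENCODE vM39 on GRCm39, the genome that the submitters' processing notes name as mm39. The first 12 coding bases were the same in the 3 α-tubulin genes and are shown for Tuba1a, with the last codon shown, which separates α from β, in capitals. The β-tubulin genes shown differed from each other here only in codons 2 and 3.
Tuba1a start: atgcgtgagTGC
Tubb5 start: atgagggaaATC
Tubb3 start: atgagggagATC
Tubb2a start: atgcgcgagATC

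The last 60 coding bases before the stop codon follow for 5 of the β-tubulin genes. Capitals mark the bases that differ from Tubb5 in an alignment of the coding sequences, inserted bases included, and bases that a gene lacks are not marked. These bases lie at chr17:36145877-36145936 for Tubb5, chr13:34311457-34311516 for Tubb2b, chr13:34258454-34258513 for Tubb2a and chr2:25112323-25112382 for Tubb4b, all on the minus strand, and at chr8:124148359-124148418 on the plus strand for Tubb3.
Tubb5 end: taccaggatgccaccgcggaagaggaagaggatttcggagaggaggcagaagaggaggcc
Tubb2b end: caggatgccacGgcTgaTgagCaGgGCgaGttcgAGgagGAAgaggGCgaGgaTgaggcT
Tubb2a end: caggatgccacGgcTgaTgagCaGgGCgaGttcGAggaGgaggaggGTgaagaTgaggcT
Tubb4b end: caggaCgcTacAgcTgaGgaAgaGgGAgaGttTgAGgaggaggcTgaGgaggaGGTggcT
Tubb3 end: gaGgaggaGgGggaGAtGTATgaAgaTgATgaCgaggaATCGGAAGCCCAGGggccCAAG

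In these ends Tubb2a, Tubb2b, Tubb4b and Tubb3 differed from Tubb5 at 15, 18, 19 and 32 bases. Over the whole coding sequence, identity was 97.1% to 98.3% among the α-tubulin genes and 80.2% to 96.5% among the β-tubulin genes, with Tubb2a and Tubb2b the closest β-tubulin pair. Likeness of this degree bears on counting. Of all 100-base windows of the canonical transcript, 64.9% in Tuba1a, 35.1% in Tuba1b and 46.1% in Tuba1c were found letter for letter in a transcript of another gene, most often another of these α-tubulin genes. The share was 25.1% in Tubb2a and 10.1% in Tubb2b, mostly with each other, and 29.1% in Tubb4b, mostly with the pseudogene Tubb4b-ps1. The canonical transcripts of Tuba1b, Tubb2a and Tubb2b (3358, 2326 and 5794 bases) are longer than the lengths that their FPKM imply (1875, 1610 and 2294). Over those shorter lengths the part in shared windows may be larger than these shares. No such window was found in Tubb3, Tubb4a, Tubb5 or Tubb6 against the annotated transcripts. How such reads were treated is not given in the sources used here, and the levels of Tuba1a, Tuba1b and Tuba1c against each other, and of Tubb2a and Tubb2b against each other, are therefore uncertain. The same holds for genes with many shared windows against genes with none. It thus extends to the shares of the β-tubulin sum and to the α to β ratio given below. Tubb5 also overlaps Flot1, and Tubb2a overlaps Bphl, on the opposite strand, and whether counting used strand is not given in those sources either. Tuba1a and Tuba1b overlap the annotated span of a further gene on their own strand, Gm49450, which had a mean of 10.1 FPKM.

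Fragments on genes numbered 15902206 to 17437634 per library. Every member had between 208 and 46286 fragments in each library, and counting error was not measured against the spread between libraries. All 10 members passed the filter of a mean of 0.1 FPKM. Libraries deviated over the members together: bFGF/EGF replicate 3 was the lowest of its group for 10 of 10 members, bFGF/BMP4 replicate 1 for 9 of 10, and BMP4 replicate 2 was the highest of its group for 9 of 10. The stem cell label was held against its markers. Sox2 lay between 121 and 202 FPKM in all libraries, while Nes, which encodes the defining marker Nestin, ranged from 145 to 157 FPKM at day 0, from 2.96 to 3.94 in bFGF/BMP4-treated NSCs and from 10.7 to 20.7 in BMP4-treated NSCs. Of the 8 neural stem cell markers, 1 was called higher and 3 lower in bFGF/BMP4 against bFGF/EGF, 2 and 2 in BMP4 against bFGF/EGF, and 3 and 0 in BMP4 against bFGF/BMP4. All genes gave 16.5% and 14.1%, 21.3% and 15.4%, and 8.41% and 5.14% in turn. Pax6 and Msi1 were the markers called higher in BMP4 against bFGF/EGF (4.48-fold and 2.94-fold), and Vim, lower in bFGF/BMP4, was 5.34-fold higher in BMP4 than there. The summed level of the list was 1691 to 1794 FPKM with bFGF/EGF, 678.5 to 783.3 with bFGF/BMP4 and 1451 to 1915 with BMP4. Because these are bulk samples, fewer cells of a type and less RNA per cell cannot be told apart in any value that follows. The replicates are called biological, but whether they came from separate isolations is not stated, so p-values measure only the spread between these libraries, which may be technical.

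**Figure D1:**
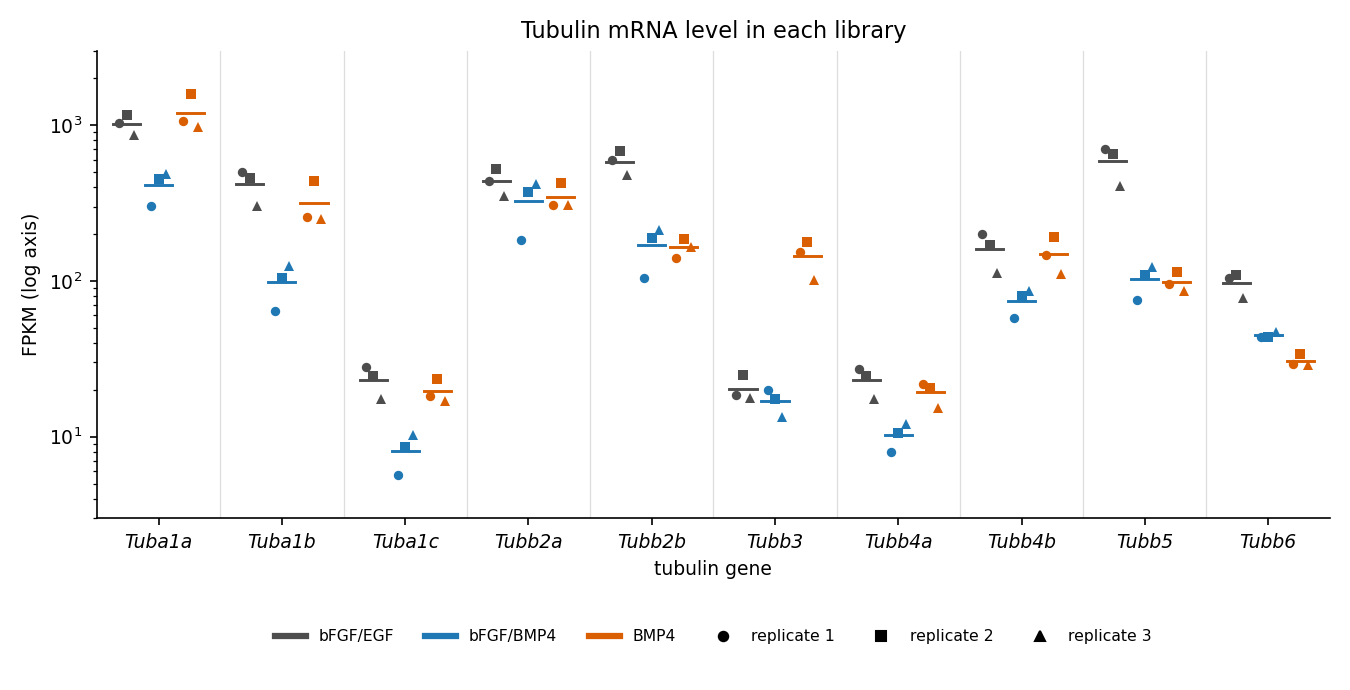
Level of each tubulin mRNA in FPKM on a log axis, by gene. Points are libraries, with 1 marker shape per replicate, colours are the 3 groups and dashes are group means. For Tuba1a, Tuba1b, Tuba1c, Tubb4a and Tubb4b the 3 bFGF/BMP4 points lie under all others, for Tubb5, Tubb2b and Tubb6 both day 6 groups lie under bFGF/EGF, for Tubb3 the 3 BMP4 points lie above all others (100.8 FPKM or more), and for Tubb2a the groups overlap.

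The isotype mRNAs did not move as a block. bFGF/BMP4-treated NSCs had less of 8 of the 10 mRNAs than bFGF/EGF-treated NSCs, from 2.12-fold less of Tubb4b to 5.69-fold less of Tubb5, and more of none. BMP4-treated NSCs had less of Tubb5, Tubb2b and Tubb6 and 6.98-fold more of Tubb3. Between the day 6 groups, BMP4-treated NSCs had more of Tuba1a, Tuba1b, Tuba1c and Tubb3. A gene was called where limma gave an adjusted p of 0.05 or less and the change was 2-fold or more on log2(FPKM + 0.1), with the fit and the Benjamini-Hochberg adjustment over all 20207 genes that passed the filter. Fold changes and log2 fold changes are on that scale.

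Against bFGF/EGF, 0 of 10 members were called higher and 8 of 10 lower in bFGF/BMP4, where 16.5% and 14.1% of all genes were called. Without the fold threshold the counts remained 0 and 8, where all genes gave 25.0% and 23.6%. In BMP4 against bFGF/EGF, 1 member was called higher and 3 lower, with 21.3% and 15.4% of all genes called, and the same counts without the fold threshold stood beside 29.6% and 25.3%. In BMP4 against bFGF/BMP4, 4 members were called higher and 0 lower, with 8.41% and 5.14% of all genes called. Without the fold threshold these became 6 and 1, beside 12.2% and 8.89%. The median log2 fold change of the 10 members was -1.25, -0.30 and 0.95 in the 3 comparisons, and that of all genes was 0.06, 0.10 and 0.00. The libraries of the groups did not overlap for 8, 4 and 7 members in turn, and for 57.7%, 60.4% and 38.7% of all genes. The first pair of comparisons shares the bFGF/EGF libraries, and each day 6 group enters 2 comparisons, so the 3 sets of values are not independent.

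**Figure D2:**
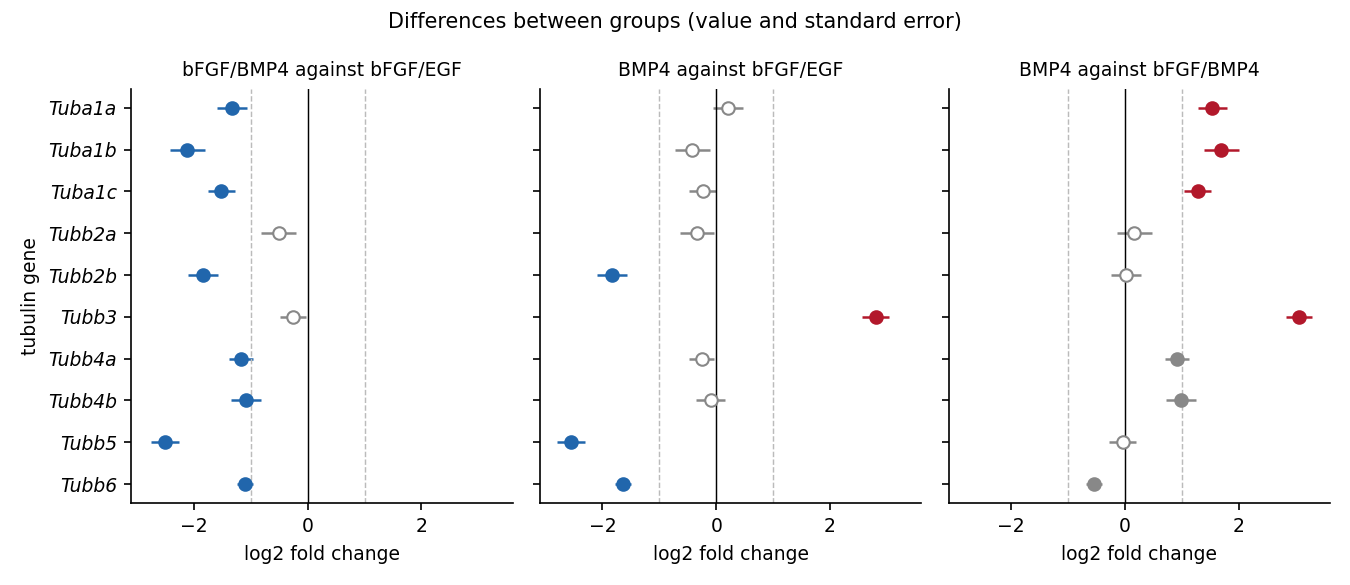
Log2 fold change of each tubulin gene in the 3 comparisons, with its standard error from limma. Filled points have an adjusted p of at most 0.05, colour marks those that also changed at least 2-fold (blue lower, red higher), and dashed lines mark a 2-fold change. The filled points are 8 in the first panel, 4 in the second and 7 in the third, and Tubb3 lies farthest to the right at 2.80 and 3.06.

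Among the α-tubulin genes, Tuba1a encodes the isotype that dominates in the developing brain, and Tuba1b and Tuba1c encode isotypes made in many cell types. Tuba1a (ENSMUSG00000072235, chr15:98847714-98851589, minus strand) had the highest mean level of the 10 members. In replicates 1 to 3 it stood at 1038, 1166 and 864.7 FPKM with bFGF/EGF, at 302.1, 449.3 and 485.4 with bFGF/BMP4, and at 1060, 1585 and 966.7 with BMP4. The 3 bFGF/BMP4 libraries lay below the other 6, and the bFGF/EGF and BMP4 libraries overlapped. Tuba1a fell by 1.33 (SE 0.26) on the log2 scale in bFGF/BMP4 against bFGF/EGF, limma adjusted p = 0.00202, and was higher by 1.54 (SE 0.26) in BMP4 against bFGF/BMP4, adjusted p = 0.00207. In BMP4 against bFGF/EGF its log2 fold change was 0.21 (SE 0.26, adjusted p = 0.522). That last value has no settled sign: under quantile normalization, which sets each gene by its rank in the library, it was -0.81 with an adjusted p of 0.00165. Tuba1a was the 9th to 11th highest gene in bFGF/EGF libraries and the 17th to 21st in BMP4 libraries.

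Tuba1b (ENSMUSG00000023004, chr15:98827738-98832493, minus strand) was likewise lowest in bFGF/BMP4-treated NSCs, over a wider range. It had 500.4, 457.6 and 300.5 FPKM in bFGF/EGF, 64.2, 104.9 and 125.1 in bFGF/BMP4, and 259.0, 437.0 and 251.4 in BMP4. The bFGF/BMP4 libraries again lay below the other 6. Tuba1b fell by 2.12 (SE 0.31) in bFGF/BMP4 against bFGF/EGF (adjusted p = 0.000304) and was higher by 1.69 (SE 0.31) in BMP4 against bFGF/BMP4 (adjusted p = 0.00306). Its BMP4 value against bFGF/EGF was -0.42 (SE 0.31, adjusted p = 0.271), with overlapping libraries. Tuba1c (ENSMUSG00000043091, chr15:98927748-98936266, plus strand), the least abundant member, lay at 17.4 to 27.9, 5.66 to 10.2 and 16.9 to 23.4 FPKM across bFGF/EGF, bFGF/BMP4 and BMP4 libraries. Its log2 fold changes were -1.52, -0.24 and 1.28 (SE 0.24 each), of which the first and the last were called.

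Summed over the 3 genes, α-tubulin mRNA was 1465 ± 248 FPKM (SD, n = 3) with bFGF/EGF, 518.5 ± 130 with bFGF/BMP4 and 1539 ± 441 with BMP4. The BMP4 and bFGF/EGF libraries overlapped in this sum (exact permutation p = 0.8) but not in its make-up. Tuba1a took 66.3%, 70.7% and 73.1% of it in bFGF/EGF, 81.2%, 79.8% and 78.2% in bFGF/BMP4, and 79.3%, 77.5% and 78.3% in BMP4. All 6 day 6 libraries were above the 3 bFGF/EGF libraries, and the day 6 groups overlapped. The two-sided exact permutation test over libraries gave p = 0.1 for each day 6 group against bFGF/EGF, the smallest value that 3 against 3 allows. Over the 51 comparisons of sums, shares and ratios made in this way, 38 reached that value and the smallest Benjamini-Hochberg adjusted p was 0.134, so none could pass 0.05 in this design.

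Of the β-tubulin genes, Tubb5 and Tubb2b, the main β-tubulin mRNAs of bFGF/EGF-treated NSCs, were lower in both day 6 groups. TUBB5 is made in most cells, dividing ones included, and TUBB2B is prominent in the developing nervous system. Tubb5 (ENSMUSG00000001525, chr17:36144809-36149198, minus strand) had 706.6, 653.7 and 409.0 FPKM in bFGF/EGF, 75.9, 109.9 and 122.6 in bFGF/BMP4, and 96.2, 114.2 and 85.8 in BMP4. The lowest bFGF/EGF library was far above the highest of the other 6 (409.0 against 122.6), and the day 6 groups overlapped. Tubb5 fell by 2.51 (SE 0.24, adjusted p = 2.31e-05) in bFGF/BMP4 and by 2.55 (SE 0.24, adjusted p = 1.38e-05) in BMP4 on the log2 scale, the largest falls of any member in either comparison. Between the day 6 groups it differed by -0.04 (SE 0.24, adjusted p = 0.942).

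Tubb2b (ENSMUSG00000045136, chr13:34307245-34315143, minus strand) had 597.5, 678.5 and 474.9 FPKM in bFGF/EGF, 104.1, 189.6 and 212.7 in bFGF/BMP4, and 140.7, 186.2 and 165.0 in BMP4. Here too bFGF/EGF lay above all 6 other libraries and those 6 overlapped. Tubb2b fell by 1.84 (SE 0.26, adjusted p = 0.000277) and by 1.83 (SE 0.26, adjusted p = 0.000223). Tubb6 (ENSMUSG00000001473), a gene of broad and usually low expression, was the other member that fell in both, and it was the only one whose 3 groups were all apart. It ranged over 78.2 to 108.6 FPKM with bFGF/EGF, 43.4 to 47.2 with bFGF/BMP4 and 28.8 to 34.2 with BMP4. Its log2 fold changes were -1.10, -1.64 and -0.54 (SE 0.14 each), the last with an adjusted p of 0.021 but less than 2-fold. In that last comparison the adjusted p rose to between 0.0584 and 0.08 without bFGF/BMP4 replicate 2 or 3 or BMP4 replicate 1 or 3.

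Tubb2a (ENSMUSG00000058672, chr13:34257549-34261998, minus strand) was the exception among the abundant members, although it is the closest relative of Tubb2b. It had 436.4, 523.6 and 352.8 FPKM in bFGF/EGF, 182.2, 370.4 and 417.7 in bFGF/BMP4, and 305.8, 424.6 and 308.3 in BMP4. All 3 groups overlapped. The log2 fold changes were -0.51, -0.34 and 0.17 (SE 0.31 each), with adjusted p of 0.204, 0.38 and 0.763. The ratio of Tubb2a to Tubb2b within a library was 0.730, 0.772 and 0.743 in bFGF/EGF, 1.75, 1.95 and 1.96 in bFGF/BMP4, and 2.17, 2.28 and 1.87 in BMP4. As counted, with the shared windows given above, Tubb2b was the more abundant of the pair in each bFGF/EGF library and Tubb2a in each of the other 6, with an exact permutation p of 0.1 for either day 6 group against bFGF/EGF.

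Tubb4b, which encodes a β-tubulin used widely and in cilia, and Tubb4a, whose product is found mainly in brain, were, like the α-tubulin genes, lowest in bFGF/BMP4-treated NSCs. Tubb4b (ENSMUSG00000036752, chr2:25112170-25114714, minus strand) had 200.1, 169.5 and 112.9 FPKM in bFGF/EGF, 58.1, 80.3 and 85.5 in bFGF/BMP4, and 147.3, 191.2 and 110.8 in BMP4. The bFGF/BMP4 libraries lay below the other 6. Tubb4b fell by 1.09 (SE 0.26, adjusted p = 0.00605) in bFGF/BMP4 against bFGF/EGF, a fold just past the threshold. It no longer reached 2-fold without bFGF/EGF replicate 1 (-0.91) or without bFGF/BMP4 replicate 1 (-0.92). In BMP4 against bFGF/BMP4 Tubb4b differed by 0.99 (SE 0.26, adjusted p = 0.0217), just under the threshold of fold. That value passed it without bFGF/BMP4 replicate 2 or 3 or BMP4 replicate 3 (1.05 to 1.19), and its adjusted p was 0.0621 to 0.0799 without bFGF/BMP4 replicate 1 or BMP4 replicate 1 or 2. Tubb4a (ENSMUSG00000062591, chr17:57387057-57394782, minus strand) lay at 17.5 to 27.4, 7.99 to 12.1 and 15.4 to 21.9 FPKM across bFGF/EGF, bFGF/BMP4 and BMP4 libraries. It fell by 1.17 (SE 0.21, adjusted p = 0.00124) in bFGF/BMP4, and the BMP4 value against bFGF/BMP4 was 0.91 (SE 0.21, adjusted p = 0.0122), under 2-fold. Without bFGF/BMP4 replicate 3 or BMP4 replicate 3 it passed 2-fold (1.04 and 1.07), and without BMP4 replicate 1 the adjusted p was 0.0516.

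Tubb3 (ENSMUSG00000062380, chr8:124138163-124150092, plus strand) stood apart from the other members. It had 18.4, 25.0 and 17.6 FPKM in bFGF/EGF, 20.0, 17.5 and 13.4 in bFGF/BMP4, and 154.4, 178.9 and 100.8 in BMP4. The BMP4 libraries lay above the other 6, which overlapped. Tubb3 was higher in BMP4 by 2.80 (SE 0.23, adjusted p = 5.44e-06) against bFGF/EGF and by 3.06 (SE 0.23, adjusted p = 1.75e-05) against bFGF/BMP4, 6.98-fold and 8.37-fold. Over all alternatives of processing and each library left out in turn, these values stayed between 2.63 and 3.04 and between 2.89 and 3.30. In bFGF/BMP4 against bFGF/EGF Tubb3 differed by -0.26 (SE 0.23, adjusted p = 0.388).

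Markers of other cell types were set beside Tubb3. Their counts stand beside the shares of all genes called, 16.5% higher and 14.1% lower in bFGF/BMP4 against bFGF/EGF. These shares were 21.3% and 15.4% in BMP4 against bFGF/EGF, and 8.41% and 5.14% in BMP4 against bFGF/BMP4. The 18 neuron and neuroblast markers summed to 426 to 489 FPKM with bFGF/EGF, 72.1 to 85.0 with bFGF/BMP4 and 122 to 138 with BMP4, so the list as a whole was lower in BMP4 than in bFGF/EGF, where Tubb3 was higher. Gap43, a growth cone protein gene, made up most of the bFGF/EGF sum and fell by 3.04 on the log2 scale in BMP4. Of the 16 markers of this list that passed the filter, 4 were called higher and 6 lower in BMP4 against bFGF/EGF, and 6 higher and 1 lower against bFGF/BMP4. The 4 called higher against bFGF/EGF were Dlx2, Nrxn3, Dlx1 and Dcx, by 3.17, 2.51, 2.01 and 1.44 on the log2 scale. For Dcx the limma adjusted p was 0.0499 there, and 0.0429 against bFGF/BMP4, where it was called higher by 1.82. Dcx, which encodes the neuroblast protein doublecortin, was at 0.11 to 0.23, 0.11 to 0.12 and 0.34 to 1.99 FPKM in the 3 groups, with 70 to 408 fragments in the BMP4 libraries. Stmn2, a neuronal stathmin gene, had at most 18 fragments in any library. Among the 3 BMP4 libraries, Dcx was highest in replicate 1 and Tubb3 in replicate 2, and an order of 3 libraries cannot relate these genes. The ependymal markers summed to 29.2 to 30.6, 86.9 to 95.4 and 285 to 350 FPKM, the oligodendrocyte markers to 20.95 to 32.3, 33.4 to 45.4 and 50.2 to 63.2, and the mature astrocyte markers to 220 to 299, 804 to 904 and 3813 to 4712. Gfap led the astrocyte sum in BMP4, with a mean of 2566 FPKM. Of the 10 astrocyte markers, 8 were called higher and 1 lower, Aldh1l1, in each day 6 group against bFGF/EGF. In BMP4 against bFGF/BMP4, 6 were called higher and 3 lower, the latter being Slc1a2, Slc4a4 and Gjb6. Tmem47 (252.4 FPKM) and Foxj1 (55.1 FPKM) led the ependymal sum in BMP4. Of the 11 ependymal markers found, 6 passed the filter, and all 6 were called higher in BMP4 against bFGF/EGF and against bFGF/BMP4. Those other than Tmem47 and Foxj1 had means of 0.653 to 5.05 FPKM in BMP4. In bFGF/BMP4 against bFGF/EGF, 1 ependymal marker was called higher and 2 lower. In the BMP4 libraries, 18 of 18 neuron and neuroblast markers and 8 of 11 ependymal markers were above 0 in at least 1 library, with Tmem212, Mia and Spag17 at 0, and so were 11 of 12 oligodendrocyte markers, with Sox10 at 0. The 10 proliferation markers, all called lower in both day 6 groups, summed to 226 to 517, 70.5 to 109 and 17.2 to 18.8 FPKM. The 6 markers of oligodendrocyte precursors summed to 1563 to 2264 FPKM with bFGF/EGF, 1313 to 1796 with bFGF/BMP4 and 216 to 423 with BMP4. Of these, 5 were called lower in bFGF/BMP4 and 6 in BMP4, against bFGF/EGF, and 2 in BMP4 against bFGF/BMP4, with none called higher. Olig1 and Olig2, which gave most of that sum, were 5.03-fold and 19.0-fold lower in BMP4 than in bFGF/EGF, and Sox10 was at 0 in every day 6 library. The part of any of these lists in the tubulin values was not tested.

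**Figure D3:**
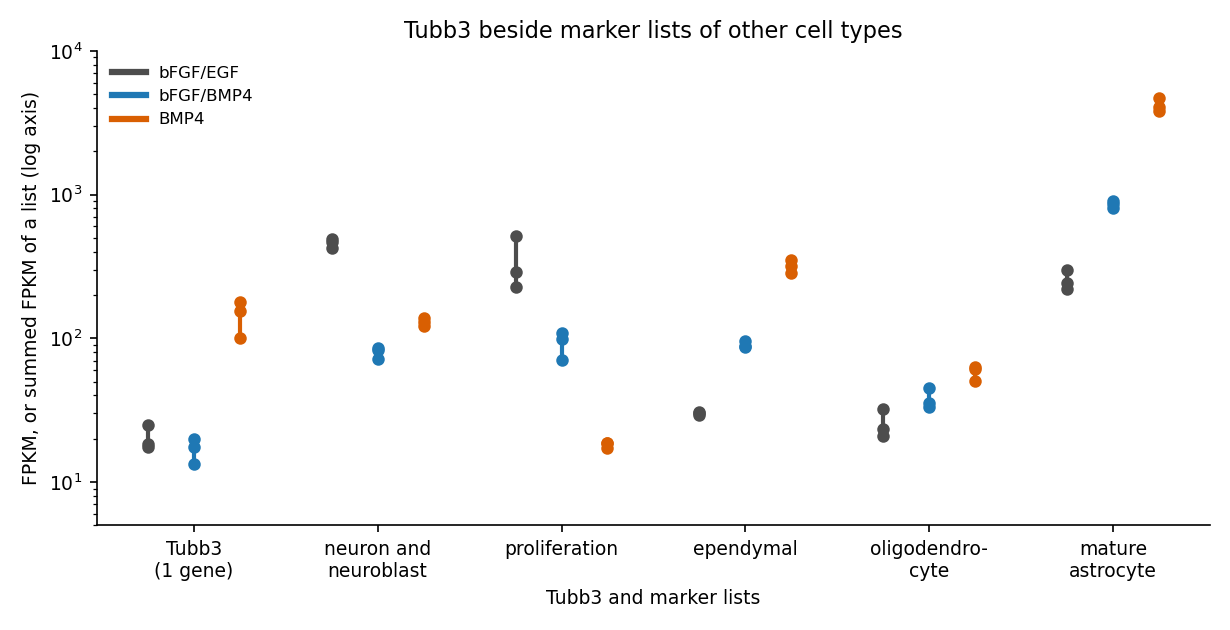
Tubb3 in FPKM and the summed FPKM of 5 marker lists, on a log axis. Points are the lowest, middle and highest of the 3 libraries of a group, and lines join them. Tubb3 is highest in BMP4, the neuron and neuroblast sum is highest in bFGF/EGF (426 to 489), the proliferation sum falls from bFGF/EGF to BMP4, and the ependymal and mature astrocyte sums are highest in BMP4.

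The sum of the 7 β-tubulin mRNAs was 1913 ± 392 FPKM (SD, n = 3) with bFGF/EGF, 741.6 ± 221 with bFGF/BMP4 and 953.4 ± 175 with BMP4. Tubb5 took 30.6% ± 2.96 of it with bFGF/EGF, 14.1% ± 1.17 with bFGF/BMP4 and 10.4% ± 0.418 with BMP4. Tubb2b took 30.7% ± 1.97, 22.5% ± 1.18 and 17.4% ± 2.49. Tubb2a moved the other way, from 23.0% ± 1.84 to 42.7% ± 4.87 and 36.3% ± 1.92. The order of Tubb5 and Tubb2b in bFGF/EGF was not settled, since Tubb5 had the higher share in replicate 1 (33.8% against 28.6%) and Tubb2b in replicates 2 and 3 (31.1% against 29.9% and 32.5% against 28.0%). Tubb2a had the highest share in all 6 day 6 libraries, although its FPKM was not called different in any comparison.

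Tubb3 took 0.879%, 1.14% and 1.21% of the β-tubulin sum in bFGF/EGF, 4.06%, 2.13% and 1.47% in bFGF/BMP4, and 17.2%, 15.6% and 12.4% in BMP4. The groups were apart in all 3 comparisons, with an exact permutation p of 0.1 each. In bFGF/BMP4 the share was higher than in bFGF/EGF while the Tubb3 level was not. Tubb4b took 8.35% ± 1.06, 10.3% ± 1.31 and 15.6% ± 1.70. Tubb4a and Tubb6 each took under 10% in every library.

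The ratio of the α-tubulin sum to the β-tubulin sum was 0.749, 0.755 and 0.808 in bFGF/EGF, 0.757, 0.685 and 0.681 in bFGF/BMP4, and 1.49, 1.78 and 1.52 in BMP4. The BMP4 libraries lay above the other 6, which overlapped. The difference was 0.825 against bFGF/EGF and 0.888 against bFGF/BMP4, with an exact permutation p of 0.1 for each. The level of the ratio, and which sum is the larger, may depend on how reads with several matches were counted. That treatment is not known, and windows shared with other genes were most frequent in the α-tubulin genes. On rebuilt fragment numbers, which are not scaled by gene length, the mean ratios were 0.579, 0.607 and 1.41, in which bFGF/EGF and bFGF/BMP4 changed places. Together the 10 mRNAs made up 1.31%, 1.30% and 1.03% of all FPKM in bFGF/EGF, 0.315%, 0.495% and 0.541% in bFGF/BMP4, and 0.803%, 0.979% and 0.736% in BMP4. The 3 groups were apart in this share, with bFGF/EGF highest and bFGF/BMP4 lowest. In summed FPKM itself, bFGF/EGF (2646 to 3831) and BMP4 (2050 to 3195) overlapped, with an exact permutation p of 0.2, and bFGF/BMP4 (863.7 to 1532) lay below both.

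**Figure D4:**
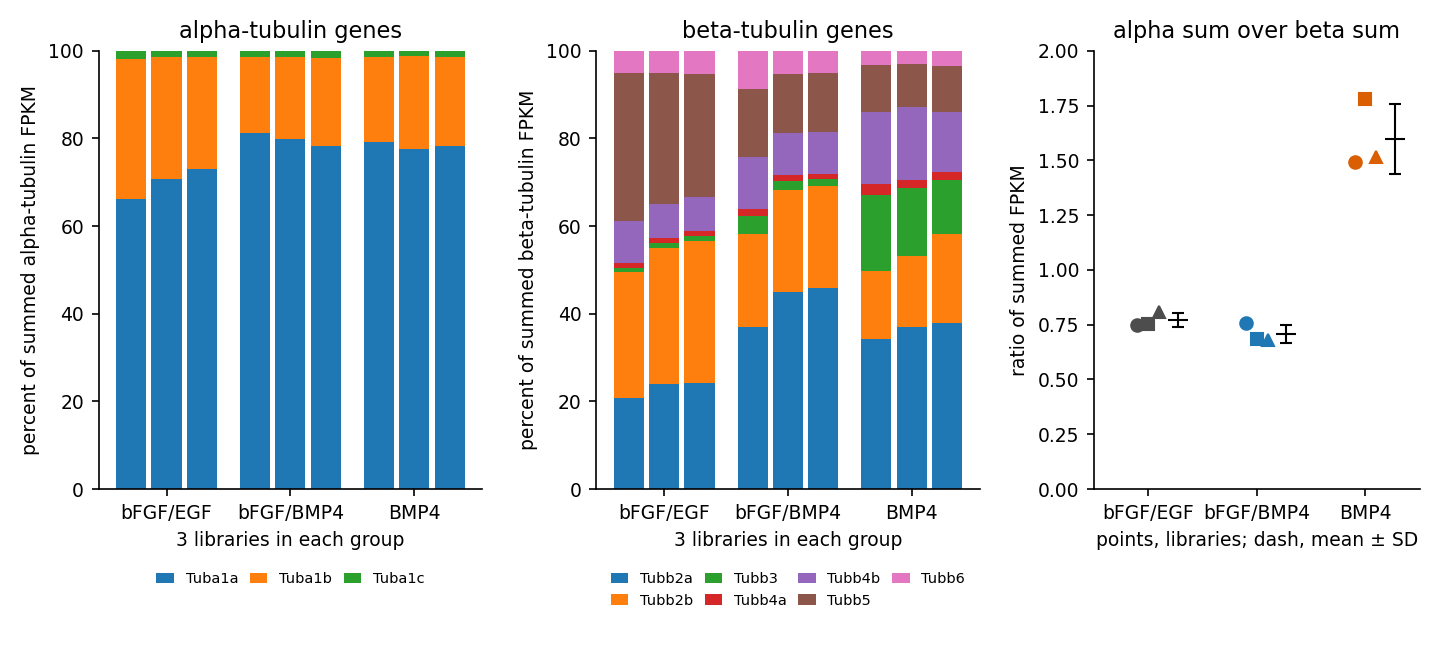
Make-up of the tubulin mRNA pool. The stacked bars give each gene as a percent of the summed α-tubulin or β-tubulin FPKM of a library, and the last panel gives the ratio of the α sum to the β sum for each library with the group mean ± SD. Tubb5 shrinks from 30.6% to 14.1% and 10.4% of the β-tubulin sum, Tubb3 reaches 15.1% in BMP4, and the ratio is above 1.4 in the BMP4 libraries and below 0.81 in all others.

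Across the 9 libraries, the log2 levels of the members split into sets, given here as a description. The 9 points share 3 group means and hold libraries that were high or low for most members. Tuba1b correlated with Tuba1c at r = 0.995, and Tuba1a, Tuba1b, Tuba1c, Tubb4a and Tubb4b correlated with each other at 0.905 or more. How reads from windows shared among the α-tubulin genes were counted is not known, so the correlations of these genes with each other are uncertain as well. Tubb5, Tubb2b and Tubb6 correlated with each other at 0.911 to 0.981. Tubb3 correlated with Tubb5 at -0.418 and with Tubb6 at -0.656. Among 7871 genes outside the tubulin lists with a mean of at least 5 FPKM, the profile most like that of Tuba1a was Uchl1 (r = 0.994), a ubiquitin hydrolase gene with means of 70.7, 24.7 and 80.9 FPKM over bFGF/EGF, bFGF/BMP4 and BMP4 libraries, followed by Cnn3 and Gpx1. For Tubb2b these were Vps37b, Pspc1 and Utp4 (r of 0.990 to 0.993), for Tuba1b Ankrd54, Tsn and Ppdpf (0.974 to 0.983), and for Tubb2a Brms1l, Anxa3 and Mrpl3 (0.905 to 0.920).

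Of the 6 other α-tubulin and β-tubulin genes that were looked up, only Tuba4a and Tuba8 passed the filter. Tuba4a, which encodes an α-tubulin without the genetically encoded final tyrosine, had 0.858, 0.888 and 0.703 FPKM in bFGF/EGF, 23.6, 25.2 and 24.3 in bFGF/BMP4, and 28.9, 45.2 and 28.5 in BMP4. It was higher by 4.74 (SE 0.18, adjusted p = 7.04e-08) in bFGF/BMP4 and by 5.20 (SE 0.18, adjusted p = 2.46e-08) in BMP4, against bFGF/EGF, so in bFGF/BMP4-treated NSCs it rose while Tuba1a, Tuba1b and Tuba1c fell. Tuba8 had 0.338 to 0.950, 0.330 to 0.481 and 2.55 to 5.38 FPKM, and was higher in BMP4 by 2.54 (SE 0.36, adjusted p = 0.000212) against bFGF/EGF and by 2.94 (SE 0.36, adjusted p = 0.000313) against bFGF/BMP4. Tubb1, the platelet isotype, had 8, 3 and 7 fragments in the BMP4 libraries and 0 in the others. Tuba3a and Tubal3 had at most 2 fragments in any library, and Tuba3b was listed at 0 in all. With these other α-tubulin genes included, the mean share of Tuba1a in the α-tubulin sum was 75.95% in bFGF/BMP4 and 76.4% in BMP4.

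Genes that fold, modify or bind tubulin were counted in the same fit. The counts stand beside the shares of all genes called higher and lower. These were 16.5% and 14.1% in bFGF/BMP4 against bFGF/EGF, and 21.3% and 15.4% in BMP4 against bFGF/EGF. In BMP4 against bFGF/BMP4 they were 8.41% and 5.14%. A count near these shares does not set its list apart from all genes. Of the 23 genes of tubulin folding, which hold the CCT chaperonin subunits, prefoldins and tubulin cofactors, 1 was called higher and 8 lower in each day 6 group against bFGF/EGF, and 0 and 0 between the day 6 groups. The median log2 fold changes of the list were -0.76, -0.68 and 0.04, beside 0.06, 0.10 and 0.00 for all genes. Cct5, a chaperonin subunit gene, had 154 to 193, 47.7 to 63.3 and 46.0 to 66.2 FPKM in the 3 groups and fell by 1.60 (adjusted p = 3.98e-05) and 1.66 (adjusted p = 2.15e-05) against bFGF/EGF. Tbcel, which encodes a cofactor E-like protein, rose by 1.17 (adjusted p = 6.81e-05) and 1.44 (adjusted p = 1.19e-05). The folding genes thus had like counts in the day 6 groups, in which the tubulin genes had unlike ones, and the difference between lists was not tested.

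In the autoregulation pathway, Ttc5, which encodes the factor that reads the start of the nascent tubulin chain, lay at 9.42 to 10.45, 10.52 to 10.98 and 10.48 to 10.97 FPKM, with log2 fold changes of 0.12, 0.13 and 0.01 (adjusted p of 0.334, 0.298 and 0.988). Scaper, which links it to the deadenylase, rose by 1.49 (SE 0.29, adjusted p = 0.00172) in bFGF/BMP4 and 1.62 (SE 0.29, adjusted p = 0.000849) in BMP4, from 1.03 to 2.61 FPKM in bFGF/EGF to 4.997 to 5.47 and 4.98 to 6.48. Cnot11, the deadenylase subunit it contacts, was not called in any comparison. Of the 12 nucleation genes (γ-tubulin and its partners), 0 were called higher in any comparison and 1, 2 and 0 lower in turn, with medians of -0.44, -0.69 and -0.03. All genes gave 16.5%, 21.3% and 8.41% higher and 14.1%, 15.4% and 5.14% lower.

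Of the 24 tested genes of tubulin modification, 3 were called higher and 4 lower in bFGF/BMP4 against bFGF/EGF, 6 and 6 in BMP4 against bFGF/EGF, and 2 and 1 in BMP4 against bFGF/BMP4, with medians of -0.14, 0.24 and 0.11. All genes gave 16.5% and 14.1%, 21.3% and 15.4%, and 8.41% and 5.14% in turn, so most of these counts lie near the shares of all genes. Sirt2, a tubulin deacetylase gene, rose by 1.32 (adjusted p = 8.31e-06) and 1.45 (adjusted p = 2.89e-06) in the day 6 groups against bFGF/EGF. Vash1, which encodes an enzyme that removes the final tyrosine of α-tubulin, had 72.8 to 77.8, 45.1 to 58.0 and 8.58 to 14.3 FPKM in the 3 groups, and fell in BMP4 by 2.68 (adjusted p = 1.58e-06) against bFGF/EGF and by 2.17 (adjusted p = 2.97e-05) against bFGF/BMP4. Ttl, whose product puts the tyrosine back, lay at 7.18 to 9.83, 6.26 to 6.998 and 16.2 to 17.9 FPKM. It was higher in BMP4 by 1.34 against bFGF/BMP4 (adjusted p = 7.25e-05) and by 1.00 against bFGF/EGF (adjusted p = 0.000118), where its fold of 1.999 fell short of 2. Vash1 was therefore lowest and Ttl highest in the same group, BMP4. Both were named as the largest fall and the largest rise of the list in BMP4 against bFGF/BMP4, so they do not stand for the list.

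Of the 36 tested genes of microtubule-binding proteins and stathmins, 2 were called higher and 6 lower in bFGF/BMP4 against bFGF/EGF, 7 and 2 in BMP4 against bFGF/EGF, and 9 and 1 in BMP4 against bFGF/BMP4, with medians of -0.11, 0.12 and 0.38. All genes gave 16.5% and 14.1%, 21.3% and 15.4%, and 8.41% and 5.14% in turn. Tppp3, a tubulin polymerization gene, had 0.318 to 0.582, 0.441 to 1.15 and 17.2 to 39.0 FPKM in the 3 groups, and in BMP4 rose by 5.70 (adjusted p = 1.15e-06) against bFGF/EGF and by 5.08 (adjusted p = 1.37e-05) against bFGF/BMP4. As for Tubb3, the BMP4 libraries lay above the other 6, which overlapped. Stmn3, which encodes a stathmin that binds free tubulin dimers, had 115 to 170, 23.2 to 28.8 and 54.1 to 84.4 FPKM and fell by 2.35 (adjusted p = 9.23e-06) and 1.05 (adjusted p = 0.00124) against bFGF/EGF. Map7d2, a gene of the MAP7 family, rose by 2.16 (adjusted p = 1.24e-05) in bFGF/BMP4 and 1.28 (adjusted p = 0.000277) in BMP4. Of the 9 genes of severing, 0 were called higher and 1 lower in bFGF/BMP4 against bFGF/EGF, 0 and 2 in BMP4 against bFGF/EGF, and 1 and 1 in BMP4 against bFGF/BMP4, with medians of -0.36, -0.12 and -0.08. With 9 genes, these counts are too small to be set apart from the shares of all genes. Fignl1, the fidgetin-like 1 gene, fell by 2.01 (adjusted p = 0.00043), 3.92 (adjusted p = 3.8e-06) and 1.92 (adjusted p = 0.0015) in turn.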

How the data were processed

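Bulk RNA-seq of 9 mouse NSC libraries (3 groups of 3) was used. Per the submitters' processing notes, reads were cleaned with fastp 0.19.7, aligned to mm39 with HISAT2 2.0.5 and counted with featureCounts 1.5.0-p3, and the authors tested with DESeq2. The authors deposited FPKM values, which are fragments scaled by gene length and library, for 55704 genes with 1 column per library. The annotation release, the FPKM program, the treatment of reads with several matches and strandedness are not given in the sources used here.

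Groups came from the sample titles. Since FPKM values are not counts, limma 3.58.1 in R 4.3.3 was fitted with a trend to log2(FPKM + 0.1) for 20207 genes (mean over libraries of 0.1 FPKM or more), all 9 libraries in 1 fit, with calls at a Benjamini-Hochberg adjusted p of 0.05 or less and a 2-fold change. A pseudocount of 0.1 shrinks the fold changes of low genes. Each FPKM was a whole fragment number times a constant of the gene and of the library, so fragments were rebuilt for the 30860 genes above 0 and used in limma-voom as an alternative. Depth was 15902206 to 17437634 fragments per library, and fragment numbers cover counting error only. Shares of the tubulin sums were compared with two-sided exact permutation tests (scipy 1.17.1). The fit was tested on simulated data. The ends of the α-tubulin coding sequences are not reported here. Sequences, coordinates and overlaps were read from GENCODE vM39 (GRCm39) with biopython 1.88, and figures were drawn with matplotlib 3.10.9.

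The members, the companion and marker lists and the tests were chosen with earlier results of these data known. Named were all members, the other tubulin and the autoregulation genes, and, for each other companion list and comparison, the called gene with the largest rise and with the largest fall among those with a mean of at least 5 FPKM, the 3 genes most correlated with each of the 4 most abundant members, and markers on which a result turns. Alternatives were other pseudocounts and filters, no fold threshold and a fold of 1.5, quantile normalization, scaling to TPM or by median ratios, limma-voom, fits with a replicate block or on only the 2 groups in question, pools over all tubulin genes or rebuilt fragments, and each library left out in turn.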

Additional observations from a re-analysis of the deposited data

How the results depend on the processing

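Of 570 recomputed log2 fold changes of the members, 549 kept their direction and their side of the adjusted p threshold, 8 lost it (Tubb4a, Tubb4b and Tubb6 in BMP4 against bFGF/BMP4, each with a library left out) and 13 changed sign, none of which had passed the threshold. The cause was not tested. In BMP4 against bFGF/EGF, Tuba1a changed to -0.81 (adjusted p = 0.00165 in limma) under quantile normalization and -0.0042 without BMP4 replicate 2, and Tubb4b to 0.08 without bFGF/EGF replicate 1 and 0.10 without BMP4 replicate 3. With each library left out in turn these ranged from -0.0042 to 0.35 and from -0.33 to 0.10. In BMP4 against bFGF/BMP4, Tubb2b changed to -0.0601 on the TPM scale, -0.0003 under median-ratio scaling, -0.10 under quantile normalization, and -0.30 and -0.08 without bFGF/BMP4 replicate 1 and BMP4 replicate 2. There Tubb2a changed to -0.20 without bFGF/BMP4 replicate 1, and Tubb5 to 0.02, 0.10 and 0.06 without bFGF/BMP4 replicate 2, bFGF/BMP4 replicate 3 and BMP4 replicate 3. Leaving out libraries gave ranges of -0.30 to 0.21 for Tubb2b, -0.20 to 0.40 for Tubb2a and -0.24 to 0.10 for Tubb5. Under quantile normalization Tubb4b (-0.97) and Tubb6 (-0.99) fell short of 2-fold in bFGF/BMP4 against bFGF/EGF.

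Without a fold threshold, 1 member was lower in BMP4 against bFGF/BMP4. Over all tubulin genes Tuba1a took 75.95% and 76.4% of the α-tubulin sum in bFGF/BMP4 and BMP4. On rebuilt fragments, in which longer genes weigh more, it took 77.4% in BMP4, Tubb5 took 41.7%, 22.1% and 16.8% of the β-tubulin sum in bFGF/EGF, bFGF/BMP4 and BMP4, Tubb3 took 0.826% in bFGF/EGF, and the ratio of α to β was 0.579, 0.607 and 1.41.

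Over all genes, a pseudocount of 1 lowered the counts called higher and lower from 3327 and 2847 to 1723 and 1821 in bFGF/BMP4 against bFGF/EGF, from 4297 and 3103 to 2326 and 2038 in BMP4 against bFGF/EGF, and from 1699 and 1039 to 890 and 559 between the day 6 groups. A mean of at least 1 FPKM, which tests fewer genes, lowered all 6 counts, to 2259 and 2128, 2649 and 2340, and 1012 and 788 in the same order, by more than 1.5 times only for 4297 to 2649 and 1699 to 1012.

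Deviations of libraries with the same replicate number correlated at -0.08 to 0.12, with 1 of 9 pairs over 0.1. Those with different numbers correlated at -0.15 to 0.08. No strong effect shared by libraries of the same number was seen. With 3 libraries in a group, this cannot show whether the replicates were paired by isolation. With the replicate block, 0 and 8, 1 and 3, and 4 and 0 members were called higher and lower in the 3 comparisons. With 3 libraries in a group, an exact permutation test cannot go below 0.1.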
